A study of Mus musculus with 18 samples.

Results

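The regions described here carry the repressive histone mark H3K27me3 on autosomes in control fibroblasts and have no H3K27me3 peak in fibroblasts infected with Cre. They were chosen from the deposited peak lists as GFP peaks on chromosomes 1 to 19 with a score of at least 100 that share no base with a Cre H3K27me3 peak. There were 3292 of them among 21141 GFP autosomal peaks of that score (15.6%), 34064 GFP autosomal peaks of any score and 36059 GFP H3K27me3 peaks in all. They are called GFP-only regions below, which says that the Cre list held no peak there and not that the mark was absent. The choice rests on the scores and positions of both H3K27me3 lists, so that the number, scores and H3K27me3 surroundings of these regions are descriptions without a test.

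The cells were mouse embryonic fibroblasts (MEFs), primary cells of a mixed B6;129 background in which the retinoblastoma gene Rb can be deleted by Cre recombinase (conditional knockout). Cre cells were infected with Adeno-Cre to delete Rb, and GFP cells with Adeno-GFP, the control infection. Neither received the 4F construct, and both were expanded for no more than 3 passages before chromatin was taken. Which embryos the cells came from was not given in the sources used here. Chromatin immunoprecipitation and sequencing gave 1 library for each of 4 marks in each of 2 conditions, and the 8 peak lists of these libraries are compared here.

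H3K27me3 is written by Polycomb repressive complex 2 and lies over silent developmental genes, often as broad domains made of many neighbouring peaks. H3K4me3 marks promoters, and where it coincides with H3K27me3 the chromatin is called bivalent. The H3Ac antibody recognises acetylated forms of histone H3, which mark active promoters and enhancers. Lysine 27 itself can carry either acetyl or methyl groups but not both at once. Rb restrains the cell cycle by binding E2F transcription factors, and it also recruits chromatin-modifying enzymes.

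With 1 library per mark and condition, no difference between Cre and GFP cells has a replicate check, and no p-value is given. Percentages are followed by exact Clopper-Pearson 95% intervals, which cover counting error only and treat neighbouring peaks as independent. The number of reads behind each list is unknown, and so is how completely Rb was deleted in the cells used. In bulk cells, a mark on fewer cells and a weaker mark on each cell cannot be told apart. On the autosomes the Cre lists held 29328 H3K27me3, 21850 H3K4me3 and 41827 H3Ac peaks, against 34064, 22967 and 47904 in the GFP lists. The part that these list lengths play in the counts below was not tested. Scores are the authors' own and have no stated unit. Positions are in build NCBIM37, counted from 1. No gene is named, since gene positions of this build were not used.

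Most GFP-only regions were weak and narrow. Their score had a median of 134.1 and quartiles of 113 and 172, whereas the 17849 GFP peaks of the same minimum score that overlapped a Cre peak had a median of 284.7. The share of GFP peaks without a Cre counterpart fell with score. It was 36.8% (35.5 to 38.1) at scores of 100 to 150, 22.1% (20.7 to 23.6) at 150 to 200, 10.6% (9.60 to 11.6) at 200 to 300 and 1.36% (1.13 to 1.63) at 300 and above, where 118 GFP-only regions remained among 8654 peaks. Just above the threshold, at scores of 100 to 110, 671 of 1535 GFP peaks (43.7%) had no Cre peak, with a median width of 1142 bases. Just below it, at 90 to 100, these were 969 of 1926 (50.3%), with a median width of 1076 bases.

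The GFP-only regions were 727 to 8882 bases wide, with a median of 1414 bases, against 2140 bases for GFP peaks with a Cre peak. Within a score band the widths were close. At scores of 100 to 150 the medians were 1251 and 1249.5 bases, and at 200 to 300 they were 2055.5 and 1983 bases, GFP-only regions first. At scores of 300 and above the GFP-only regions were narrower, with a median of 2896.5 against 3340 bases. Only 66 GFP-only regions were 3 kb or wider, and 5 were 5 kb or wider, against 5269 and 1855 of the peaks with a Cre counterpart. All GFP-only regions together covered 5.05 Mb, which was 7.64% of the autosomal length under GFP H3K27me3 peaks.

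**Figure D1:**
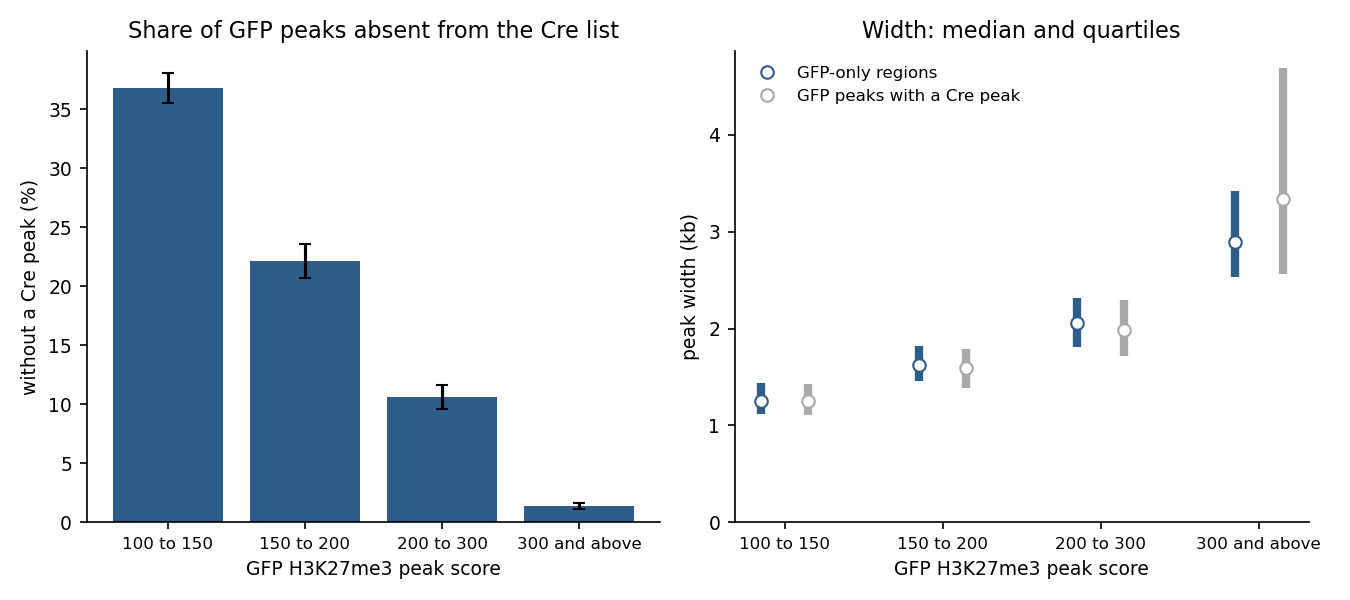
The left panel gives the percent of GFP autosomal H3K27me3 peaks without a Cre peak in 4 score bands, with 95% intervals. The right panel gives peak width in kb by score band (point, median; bar, quartiles), with GFP-only regions left of GFP peaks that have a Cre peak. The share declines from 36.8% to 1.36% while the medians stay close below a score of 300.

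Every autosome held GFP-only regions, between 85 on chromosome 16 and 284 on chromosome 2. As a share of the GFP peaks on the chromosome they ranged from 13.0% (11.6 to 14.5) on chromosome 2 to 19.6% (16.1 to 23.4) on chromosome 18.

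The strongest GFP-only region was chr18:61187022-61193324, with a score of 947.3 and a width of 6303 bases. It lay in a chain of 7 GFP peaks joined across gaps of at most 5 kb, and a Cre peak with a score of 364.9 began 341 bases from its edge. The next was chr11:108843240-108848856, with a score of 862 and a Cre peak 4822 bases away. The next, chr17:34314521-34319108, scored 715.2 and had Cre H3K27me3 on both sides within 5 kb, the nearer at 1331 bases. Each of these 3 thus lay next to H3K27me3 that was also called in Cre cells.

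The fourth region by score, chr1:92267810-92272355, scored 629.1 and lay 3304 bases from Cre H3K27me3. The next, chr16:5179374-5183716, scored 612.6, and its nearest Cre peak, at 6000 bases, had a score of only 56.98. The sixth, chr17:80308705-80311689, scored 609.1 and lay beside a strong Cre peak of 6586 bases with a score of 1677.5. It belonged to a chain of 26 GFP peaks, 5 of which were GFP-only regions.

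The seventh and eighth regions stood apart from any Cre H3K27me3. The seventh, chr1:95270204-95274426, scored 564.9 and was 222675 bases from the nearest Cre peak. The eighth, chr7:89965029-89969863, scored 545 and was 42792 bases away. The ninth, chr7:120861686-120866028, scored 511.7 and had a weak Cre peak, of score 53.87, at 1491 bases. The tenth, chr9:99753760-99758451, scored 508.4 and ended 116 bases from a Cre peak. Of these 10 regions, 7 had a Cre peak within 5 kb. None overlapped H3K4me3 or H3Ac in the Cre library, and 1, the fourth, overlapped a weak H3K4me3 peak (score 51.48) in the GFP library.

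**Figure D2:**
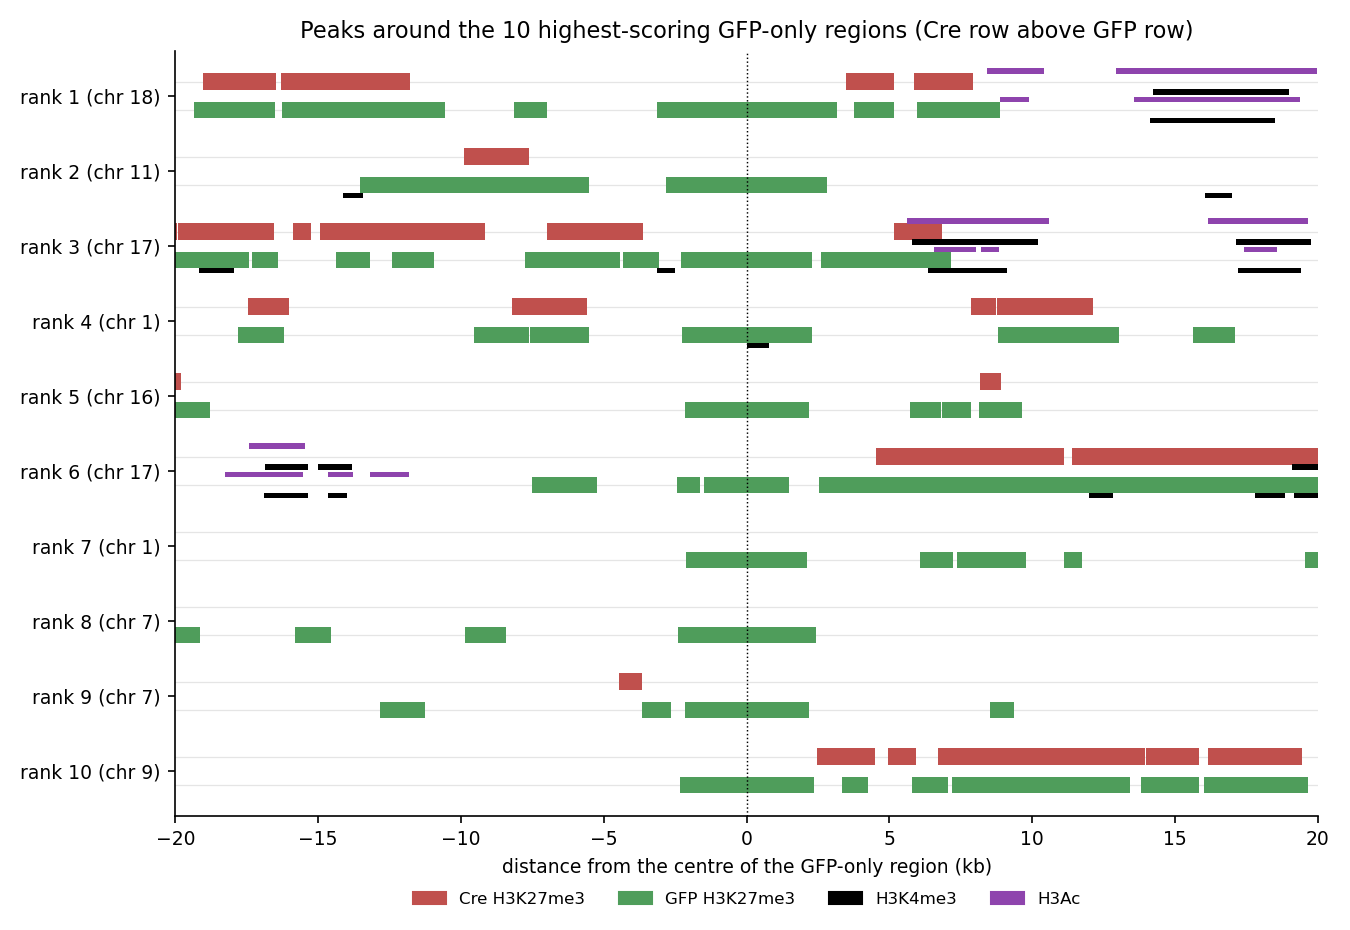
Peaks within 20 kb of the centre of the 10 highest-scoring GFP-only regions, as distance in kb. For each region the upper row is the Cre and the lower row the GFP library, with thick bars for H3K27me3 and thin bars for H3K4me3 (black) and H3Ac (purple). Most regions sit beside Cre H3K27me3, while the rows of ranks 7 and 8 hold none.

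Most GFP-only regions were close to an H3K27me3 peak of the Cre library. The median distance to the nearest Cre peak was 3042.5 bases, with quartiles of 772.5 and 12063.5 bases. A Cre peak lay within 1 kb of 956 regions (29.0%, 27.5 to 30.6), within 5 kb of 1966 (59.7%, 58.0 to 61.4) and within 50 kb of 2948 (89.6%, 88.4 to 90.6). Counting each side within 5 kb, 600 regions (18.2%) had Cre peaks on both sides, 1366 (41.5%) on 1 side and 1326 (40.3%) on neither. Width did not separate these positions, with medians of 1420.5, 1414.5 and 1407 bases. Of the 118 regions with a score of at least 300, 57 were in the last class. Closeness to the other list was not particular to GFP-only regions. For the 1906 Cre autosomal peaks of score at least 100 without a GFP counterpart, the median distance to a GFP peak was 2043.5 bases. A GFP peak lay within 5 kb of 63.7% of them (61.5 to 65.9).

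**Figure D3:**
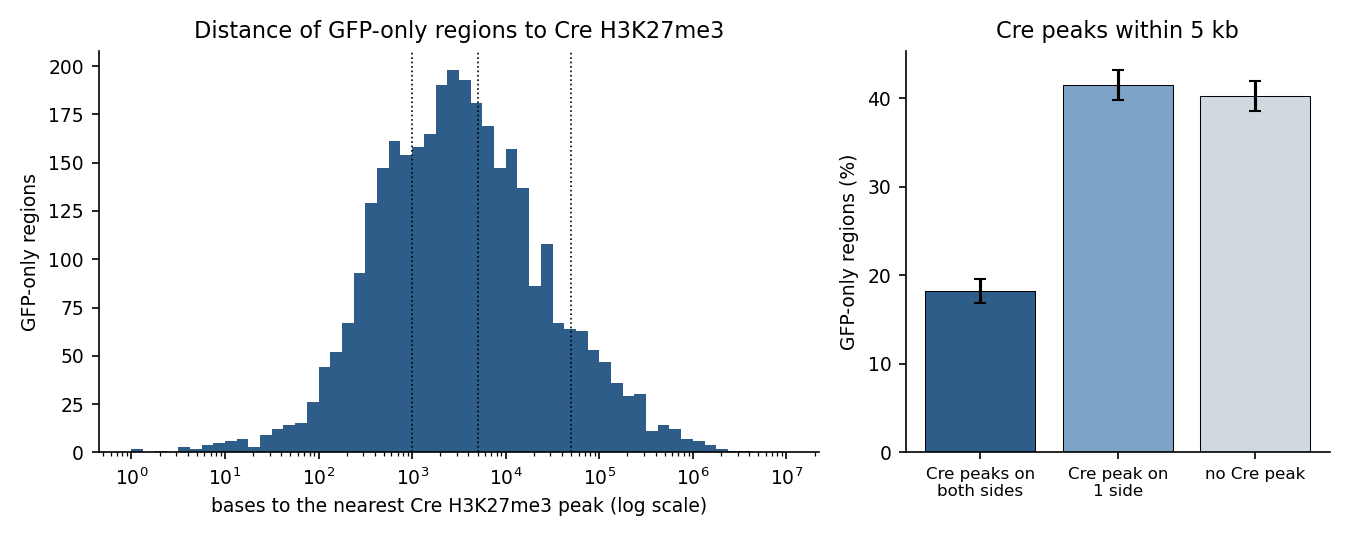
Left, the number of GFP-only regions by distance to the nearest Cre H3K27me3 peak, on a log scale, with dotted lines at 1, 5 and 50 kb. Right, the percent with Cre peaks on both sides, 1 side or neither side within 5 kb, with 95% intervals. Most regions lie within 5 kb of Cre H3K27me3, and 40.3% have none in that range.

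The Cre peaks within 5 kb of a GFP-only region had scores and widths near those of the rest. The 3205 of them had a median score of 143.9 and a median width of 1436 bases, against 146 and 1441 bases for the other 26123 Cre autosomal peaks. A GFP peak overlapped 82.9% of them (81.6 to 84.2) and 76.6% of the others (76.1 to 77.1).

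GFP-only regions had fewer H3K27me3 neighbours within the GFP list than peaks with a Cre counterpart. Another GFP peak lay within 5 kb of 72.4% of them (70.8 to 73.9), against 87.9% (87.4 to 88.4). The gap was present in each score band. At scores of 100 to 150 the shares were 70.0% (68.0 to 72.0) and 83.1% (81.8 to 84.3), and at 300 and above they were 78.8% (70.3 to 85.8) and 92.0% (91.4 to 92.6).

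When GFP peaks of any score were joined across gaps of at most 5 kb, 2776 of the 13555 resulting domains held a GFP-only region. Of these, 1508 (54.3%, 52.5 to 56.2) also held a Cre peak, against 68.8% (68.0 to 69.6) of all 13555 domains. The rule itself lowers the first share, since a domain of a single GFP-only region cannot hold a Cre peak. The 1508 domains contained 1914 GFP-only regions (58.1%, 56.4 to 59.8). These domains had a median length of 12306 bases and a median of 4 GFP peaks. In 499 of the 1508 the Cre peaks covered less than 50% of the length that the GFP peaks covered, and in 78 they covered more. The other 1268 domains held no Cre peak. They were short, with a median of 1603 bases, and 910 were a single GFP-only region.

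A minority of domains without a Cre peak was made of several GFP peaks, 254 of 2 peaks and 104 of 3 or more. Those with the most peaks, singled out after their values were seen, were chr18:81227104-81243625 and chr14:26090223-26098100, with 6 peaks each. The first held 2 GFP-only regions and a highest score of 189.5, and the second 1 and 126.1, so that most of their peaks scored below 100. The domain chr1:95270204-95284074, which contains the seventh region by score, had 4 GFP peaks over 13871 bases. Another of 4 peaks, chr8:107913013-107924427, reached a score of 489.2 and was 11204 bases from the nearest Cre peak. The domain chr17:34345671-34354678, also of 4 peaks, held 3 GFP-only regions and reached 328.8.

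There were 344 GFP-only regions more than 50 kb from any Cre H3K27me3 peak (10.4%, 9.43 to 11.5), and 12 of them scored at least 300. After chr1:95270204-95274426, the highest scores among these 12 were 438.8 at chr5:112264811-112268102 and 422.1 at chr9:46513394-46516385, 61239 and 104326 bases from Cre H3K27me3. The most remote of the 12, chr1:43353368-43355618, scored 348.6 at a distance of 339987 bases and had no other GFP peak within 96580 bases.

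GFP-only regions also lay near each other, but the same grouping was not counted for other GFP H3K27me3 peaks. Whether it is particular to GFP-only regions was therefore not tested. Joined across gaps of at most 50 kb, 1821 of them (55.3%) fell into 669 groups of 2 or more, and 57 groups held at least 5. The most in a group was 9, reached by 5 groups. The rule itself favours GFP over Cre length in these groups, since GFP-only regions hold no Cre peak. The GFP-only regions made up 14.75 to 15.65 kb of the GFP length in each group. In chr14:22786048-22972886 the Cre library had 4 H3K27me3 peaks covering 5.42 kb and the GFP library 16 covering 25.7 kb. In chr3:103269124-103477592 there were 12 Cre peaks (23.5 kb) and 31 GFP peaks (58.2 kb). In chr4:136625466-136803337 there were 21 (32.4 kb) and 29 (52.0 kb), Cre first. Of the other 2 groups, chr2:156416847-156529509 had 54.6 kb under Cre and 75.3 kb under GFP peaks, and chr5:122349359-122521615 had 58.9 kb and 90.3 kb. The chromosome 14 group was the only one of the 5 with H3Ac in the Cre library, with 9 H3Ac peaks in each library.

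H3K4me3 was rare at GFP-only regions in either condition. In the Cre library 108 of the 3292 overlapped an H3K4me3 peak (3.28%, 2.70 to 3.95), where 11.6% of all 21141 GFP H3K27me3 peaks did. In the GFP library 125 did (3.80%, 3.17 to 4.51), where 11.5% of all did. Both libraries had H3K4me3 at 70 regions. At GFP H3K27me3 peaks with a Cre counterpart the shares were 13.1% (12.6 to 13.6) in the Cre and 12.9% (12.4 to 13.4) in the GFP library. The gap was present at equal scores too. At 100 to 150 the share in the Cre library was 3.04% (2.35 to 3.88) of GFP-only regions and 5.96% (5.21 to 6.79) of peaks with a Cre counterpart. At 200 to 300 it was 2.37% (1.09 to 4.45) and 10.3% (9.26 to 11.4), and the intervals did not overlap in either band.

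GFP-only regions also lay farther from H3K4me3. The nearest peak was at a median of 25.4 kb in the Cre and 20.9 kb in the GFP library, against 15.8 and 13.4 kb for GFP peaks with a Cre counterpart. An H3K4me3 peak within 5 kb was found for 16.5% (15.3 to 17.8) of GFP-only regions in the Cre library and 18.5% (17.2 to 19.9) in the GFP library. For peaks with a Cre counterpart these shares were 30.4% (29.8 to 31.1) and 32.0% (31.4 to 32.7). The difference was smaller at equal low scores. At 100 to 150 the shares in the Cre library were 16.5% (14.9 to 18.1) of GFP-only regions and 20.7% (19.4 to 22.1) of peaks with a Cre counterpart, and in the GFP library 18.4% (16.7 to 20.1) and 22.8% (21.4 to 24.2). Distances to H3Ac were alike: medians were 18.5 kb in the Cre and 19.3 kb in the GFP library for GFP-only regions, and 19.1 and 21.6 kb for peaks with a Cre counterpart. The Cre-only regions, 1906 of the 19107 Cre autosomal H3K27me3 peaks of score at least 100 (9.98%), carried H3K4me3 more often than the GFP-only ones, in 7.35% of cases (6.21 to 8.61) in the Cre and 8.08% (6.89 to 9.40) in the GFP library.

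H3Ac was found at more GFP-only regions in Cre than in GFP cells. In the Cre library 133 regions overlapped an H3Ac peak (4.04%, 3.39 to 4.77), where 6.4% of all GFP H3K27me3 peaks did. In the GFP library 73 did (2.22%, 1.74 to 2.78), where 4.34% of all did. The same direction was seen at GFP H3K27me3 peaks with a Cre counterpart, at 6.84% (6.47 to 7.22) in the Cre and 4.73% (4.42 to 5.05) in the GFP library. At Cre-only regions the shares were 5.82% (4.82 to 6.97) and 5.46% (4.48 to 6.57), within counting error of each other.

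**Figure D4:**
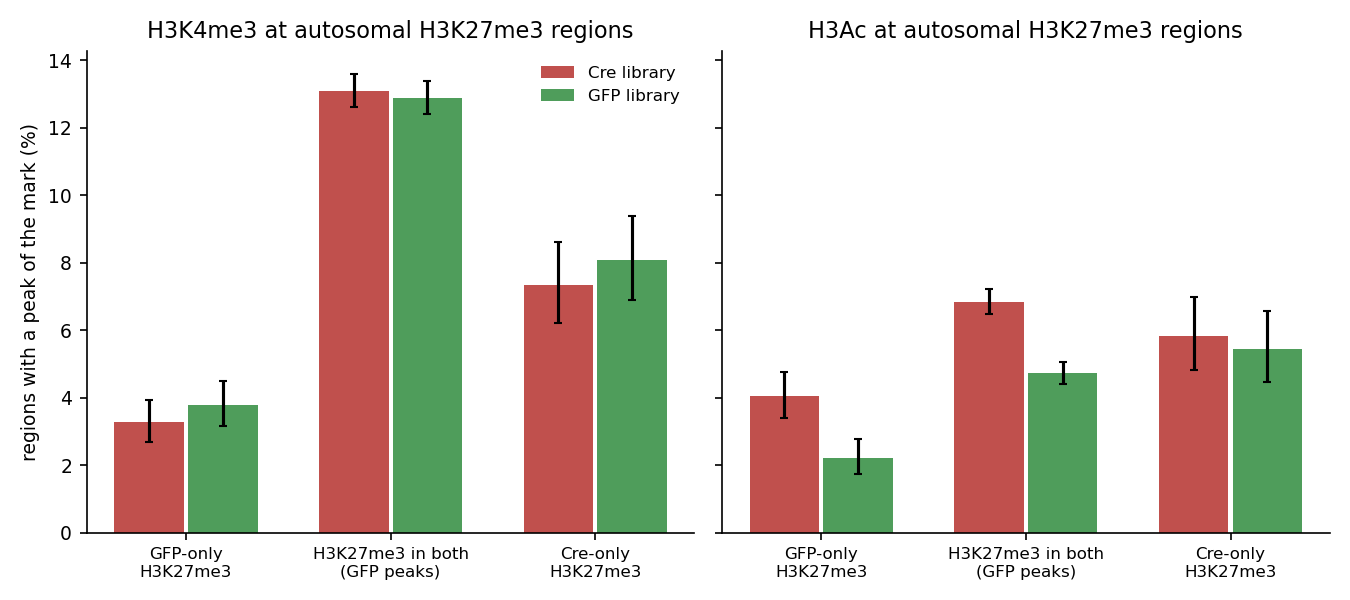
Percent of autosomal H3K27me3 regions that overlap an H3K4me3 (left) or H3Ac peak (right), with 95% intervals, in the Cre and the GFP library. H3K4me3 is scarcest at GFP-only regions, at 3.28% and 3.80%, and H3Ac there is more frequent in the Cre library, 4.04% against 2.22%.

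Regions with the mark in 1 library only show the asymmetry most plainly. H3Ac was present at 69 GFP-only regions (2.10%) in the Cre library only, where 2.83% of all GFP H3K27me3 peaks had this pattern. It was present at 9 (0.273%) in the GFP library only, where 0.771% of all had it. Both patterns were thus rarer at GFP-only regions than over all GFP H3K27me3 peaks when scores were pooled. At equal scores, GFP-only regions were compared with GFP peaks that have a Cre counterpart. H3Ac in the Cre library only was then more frequent at 150 to 200 (3.039% against 2.079%) and at 300 and above (5.932% against 3.655%). It was less frequent at 100 to 150 (1.498% against 1.969%) and at 200 to 300 (2.368% against 2.961%). The intervals overlapped in each band. H3Ac in the GFP library only was less frequent in each band. Of the 78 GFP-only regions, the Cre library held 88.5% (79.2 to 94.6). It held 86.1% of the 36 at scores of 100 to 150 and 7 of the 8 at 300 and above. For H3K4me3 there was no such excess. In the Cre library only, 38 regions had it (1.15%, against 3.11% of all GFP H3K27me3 peaks). In the GFP library only, 55 had it (1.67%, against 3.01%). The Cre library held 40.9% of the 93 (30.8 to 51.5).

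The Cre share was also above 50% at GFP H3K27me3 peaks with a Cre counterpart, whereas at Cre-only regions its interval included 50%. At GFP H3K27me3 peaks with a Cre counterpart, 530 had H3Ac in Cre cells alone and 154 in GFP cells alone, or 77.5% in Cre (74.2 to 80.6). That interval overlaps the one for GFP-only regions. At Cre-only regions the counts were 34 and 27, or 55.7% in Cre (42.4 to 68.4), and the interval lies below that of the GFP-only regions. By score the Cre share there was 67.65% (49.5 to 82.6) of 34 at 100 to 150 and 61.5% of 13 at 150 to 200. It was 33.3% of 9 at 200 to 300 and 0% of 5 at 300 and above. The interval at 100 to 150 overlaps that of GFP-only regions at the same score (70.5 to 95.3). Among all autosomal H3Ac peaks the balance was the opposite, with 6455 Cre peaks and 12818 GFP peaks that had no counterpart, or 33.5% in Cre (32.8 to 34.2). That is below the interval over all scores of each class of region, the Cre-only regions included. Whether these shares differ beyond the variation between cultures was not tested.

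A peak can be present in both libraries and still reach the region in 1 of them. When only H3Ac peaks with no counterpart anywhere in the other list were counted, 58 of the 69 regions and 7 of the 9 remained, or 89.2% in the Cre library (79.1 to 95.6). Counted so, the share was 79.0% (75.5 to 82.2) at GFP H3K27me3 peaks with a Cre counterpart and 58.0% at Cre-only regions. For H3K4me3 at GFP-only regions it was 37.0%, from 30 regions in Cre and 51 in GFP cells. The 11 other regions include the 3 with the highest Cre H3Ac scores, chr7:77512692-77514328 (3100), chr6:22237022-22238504 (3025.7) and chr16:33687571-33689108 (1608.4). There the Cre H3Ac peak extended over the GFP-only region and overlapped a GFP H3Ac peak outside it.

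**Figure D5:**
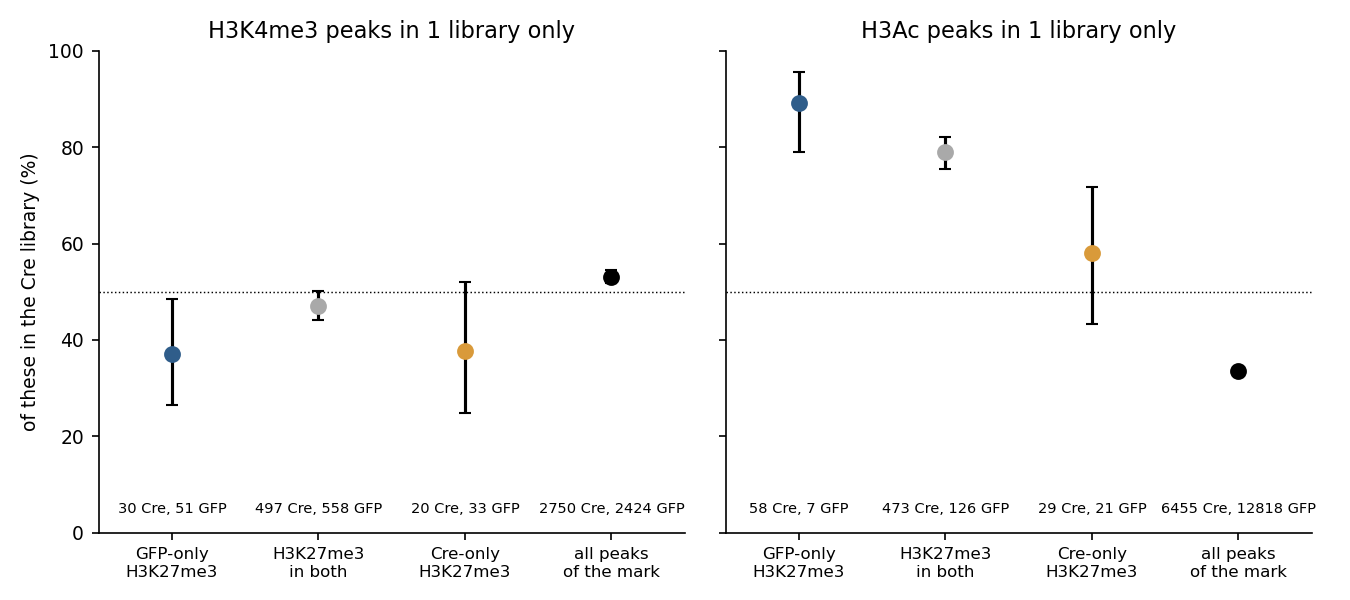
For H3K4me3 (left) and H3Ac (right) peaks without any counterpart in the other list, the percent that was in the Cre library, with 95% intervals, at 3 classes of H3K27me3 region and over all autosomal peaks of the mark. The numbers give regions (or, at the right of each panel, peaks) in each library, and the dotted line marks 50%. For H3Ac the GFP-only H3K27me3 regions are highest, at 89.2%, and all peaks lowest, at 33.5%.

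The acetylated sites were mostly weak. Among the 69 regions the Cre H3Ac score had a median of 107.3 and a range of 50.92 to 3100, 39 scored at least 100, and 29 also carried H3K4me3 in the Cre library. Among the 9 the GFP H3Ac score had a median of 63.65 and a range of 50.61 to 327.9, 1 scored at least 100, and 1 carried H3K4me3 in the GFP library. Acetylation in the Cre library was more frequent away from Cre H3K27me3: it was found at 5.20% of regions without a Cre peak within 5 kb (4.07 to 6.54), 3.66% of those with one on 1 side (2.73 to 4.80) and 2.33% of those with one on both sides (1.28 to 3.88). In the GFP library the same classes had 2.79%, 2.05% and 1.33%.

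At 16 GFP-only regions (0.486%, 0.278 to 0.788) the Cre library had both H3K4me3 and H3Ac and the GFP library neither, a pattern of 0.402% of all GFP H3K27me3 peaks. The share over all lies inside that interval, so the pattern is not particular to GFP-only regions. The reverse was found at 0 regions, which allows a share of up to 0.0911% counting 3 regions as the limit, or 0.112% by the exact interval, where 0.0473% of all had it. At GFP H3K27me3 peaks with a Cre counterpart the corresponding counts were 69 and 10 of 17849. In 15 of the 16 regions neither active peak had a GFP counterpart anywhere, and 9 of the 16 lay within 5 kb of a Cre H3K27me3 peak.

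The highest Cre H3K4me3 score of the 16 was at chr17:57361841-57365379. The GFP library had H3K27me3 there with a score of 402.6 over 3539 bases and neither active mark. The Cre library had H3K4me3 with a score of 1217.7, H3Ac with a score of 479.1, and its nearest H3K27me3 peak 45229 bases away. The lists thus show H3K27me3 without active marks there in GFP cells and active marks without H3K27me3 in Cre cells. In chr11:116272270-116273514 the GFP H3K27me3 score was 121.2, and the Cre scores were 475.5 for H3K4me3 and 184.3 for H3Ac. In chr17:36193242-36194964 the GFP H3K27me3 score was 168.5, and the Cre scores were 253.1 and 337.9. In chr14:56382039-56384438, which scored 274.1 in the GFP list, they were 144.4 and 208.3.

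Taking either active mark, 71 GFP-only regions (2.157%) had H3K4me3 or H3Ac in the Cre library and neither in the GFP library. Over all GFP H3K27me3 peaks 3.86% had this pattern. The reverse was found at 59 GFP-only regions (1.792%), where 3.2% of all had it. These shares pool all scores. With marks counted within 1000 bases of the region the numbers of GFP-only regions were 100 and 100, so that the order of both counts depends on that setting. The 3 highest-scoring of the 71 had H3Ac alone and at low scores: 105.4 at chr10:79058542-79062766 (GFP H3K27me3 score 465.7), 66.65 at chr17:28270224-28274231 (461.9) and 74.63 at chr1:182864157-182866773 (446.3). The fourth was chr17:57361841-57365379. The next, chr7:108121031-108122996, scored 387.3 and had H3K4me3 at 73.2 and H3Ac at 208.5 in the Cre library, 297835 bases from Cre H3K27me3.

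The 5 highest-scoring of the 59 with the reverse pattern had single weak marks in the GFP library. Their H3K4me3 scores were 51.48 at chr1:92267810-92272355, 131.1 at chr2:27999666-28003250, 77.05 at chr9:48515945-48518927 and 56.81 at chr2:27516279-27518447. The remaining one, chr7:16810980-16813634, had H3Ac at 59.01.

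Where a mark was present in both libraries, its rank could be compared. Peaks were ranked within the autosomal peaks found in both lists, from 0 for the weakest to 100 for the strongest. The 66 H3Ac peaks over GFP-only regions had a median rank of 42.4 in Cre and 22.1 in GFP cells, and 56 of them (84.8%) ranked higher in Cre. The median change, Cre minus GFP, was 11.9 points, with quartiles of 3.87 and 26.9. Over GFP H3K27me3 peaks with a Cre counterpart it was 5.05 points in 712 peaks, of which 67.1% ranked higher in Cre, and over all 35086 peaks it was -0.329. At equal mean rank, in steps of 20 points from 0 to 80, the median change over GFP-only regions was above that over all peaks in each of 4 steps. These were 11.5 against -0.108, 14.4 against -0.383, 23.0 against -0.379 and 7.20 against -1.70 points, from only 19, 18, 17 and 9 peaks over GFP-only regions. Over GFP H3K27me3 peaks with a Cre counterpart the medians in these steps were 5.01, 10.1, 6.53 and -0.632 points. Each was also above that over all peaks, and below that over GFP-only regions.

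For H3K4me3 the ranks are limited by tied scores: the value 3100 was given to 31.8% of the 20543 ranked peaks in Cre and 20.8% in GFP cells, against 7.28% and 8.32% for H3Ac. The 73 H3K4me3 peaks over GFP-only regions had a median change of 1.28 points, with quartiles of -5.25 and 10.99, and 42 ranked higher in Cre. Over GFP H3K27me3 peaks with a Cre counterpart the median was -2.77 points, and over all peaks it was -5.34. In the range of mean rank from 80 to 100 the median over all peaks was -5.64, and 389 of 4730 ranked higher in Cre. That range cannot hold all tied peaks, since 6525 had the value 3100 in Cre cells. Lower ranges therefore include tied peaks too. At equal mean rank the medians over GFP-only regions and over all peaks were 3.97 against -1.17, -0.82 against -3.15, -4.04 against -4.09 and 27.4 against 6.03 points in the same 4 steps, from 25, 22, 16 and 7 peaks over GFP-only regions. Of the 73 peaks, 9 had a score of 3100 in Cre cells and 2 in GFP cells.

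Of the 5 widest GFP-only regions, 3 had lower scores and other marks. The widest, chr8:19893999-19902880, spanned 8882 bases with a score of only 145.6 and lay 1327600 bases from any other GFP H3K27me3 peak. It carried H3K4me3 in both libraries, with scores of 3100 in Cre and 3027.4 in GFP cells, and H3Ac in both, with 1441.1 and 1871.2. The second, chr17:29239512-29245829, scored 139.3 and overlapped H3K9me3, the heterochromatin mark, with scores of 199 in Cre and 179 in GFP cells. It also overlapped GFP H3K4me3 with a score of 903.2. The fourth, chr12:20234634-20240569, scored 237.9 and overlapped GFP H3K4me3 and Cre H3K9me3, and its nearest other GFP H3K27me3 peak was 2557418 bases away. The other 2 of the 5 widest were the highest-scoring regions, on chromosomes 18 and 11.

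H3K9me3 was rare at GFP-only regions, and its share was near that of all GFP H3K27me3 peaks. It overlapped 9 of them in the Cre library (0.273%, 0.125 to 0.518), where 0.284% of all GFP H3K27me3 peaks did, and 33 in the GFP library (1.00%, 0.691 to 1.405), where 0.875% did. The whole H3K9me3 lists differ in the same direction, with 3516 autosomal peaks in Cre and 9574 in GFP cells.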

How the data were processed

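Each of the 8 lists gives chromosome, start, end, peak name and a score per peak, called per library. The deposited score has no header or unit and runs from about 50 to at most 3233.1. Per the submitters' processing notes MACS 1.4.1 (a peak caller), BWA and bedtools 2.16.2 were among the tools and the build was NCBIM37. Input use and other calling settings: not given in the sources used here. All 8 libraries and the Cre histone input are biological replicate 3 per the labels, whereas the GFP histone input is biological replicate 1. Here scores ranked and filtered peaks within a list only.

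Overlap means at least 1 shared base. Groups were taken from the labels. The other 10 of the 18 samples were not analysed here. The members and comparisons were chosen with earlier results of these data known. Regions named were the 10 highest-scoring, the 5 widest, the 5 highest-scoring with an active mark in either library only, and the groups with most members; 5 tied where 3 were planned. The domains, the remote regions, the 16 regions with both marks, the ranks and the counts of H3Ac in 1 library only were added after values were seen. Overlap counting was checked on simulated lists (12 copies of the 34064 GFP autosomal peaks with known losses), and recovered shares were within 0.913 percentage points. Python 3.11.15, NumPy 2.4.6, pandas 2.3.3, SciPy 1.17.1 and matplotlib 3.10.9 were used. Alternatives varied the minimum score, the overlap rule, peak merging, the reach of the marks and the domain gap.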

Additional observations from a re-analysis of the deposited data

Results flagged for a closer look

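The X chromosome lies outside the comparison above, and it held 25 GFP-only H3K27me3 peaks of score at least 100 among 821 GFP peaks of that score, or 3.05% (1.98 to 4.46), against 15.6% on the autosomes. It is listed because it lies in data that the comparison does not use. The Cre H3K27me3 list held 36381 peaks in all, 29328 of them on chromosomes 1 to 19, against 36059 and 34064 in the GFP list. The Cre list thus held more peaks outside these autosomes. The part that this plays in the share on the X chromosome, or in the autosomal counts, was not tested.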

How the results depend on the processing

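Of 65 recomputed values, 32 stayed within their counting interval (for widths, the quartiles; for counts, 1.5 times) and 33 moved. The cause was not tested. With a minimum score of 200 there were 498 GFP-only regions, 4.07% of GFP peaks, of median width 2171 bases, 62.0% of them in a domain with Cre H3K27me3 and 5.02% with Cre H3Ac, and 18 and 11 had an active mark in the Cre or GFP library only. With no minimum score these were 10811 regions, 31.7%, 959 bases, 53.4%, 2.75% and 155 and 141, with Cre and GFP H3K4me3 at 2.30% and 2.67% and GFP H3Ac at 1.55%. Counting as GFP-only a peak less than 50% covered by Cre peaks gave 4967 regions, 23.5%, with 72.3% in a domain with Cre H3K27me3 and 97 with an active mark in GFP only. Requiring no Cre peak within 1000 bases gave a share of 11.0% and 44.8% in such a domain. Merging H3K27me3 peaks within 1000 bases gave 40.9% and GFP H3K4me3 at 4.70%. Domain gaps of 1000 and 10000 bases gave 29.0% and 70.6%. Counting marks within 1000 bases gave H3K4me3 at 5.65% in Cre and 6.74% in GFP, H3Ac at 7.81% and 5.35%, and equal numbers, 100 and 100, with an active mark in Cre only and in GFP only. The excess of the 71 over the 59 is therefore not stable. The share of H3Ac in 1 library only that was in Cre was between 80.5% and 88.9% under 6 of the alternatives, all added after the data were seen, and 97.5% when H3Ac peaks of score at least 100 alone were counted. No paired analysis was possible because each group has 1 library. Depth is unknown, so that a region just under the Cre threshold cannot be told from one without the mark.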
